A study of Drosophila melanogaster with 18 samples.

Results

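Transcript levels were compared between Tudor-SN knockdown and control *Drosophila melanogaster* after 6 h at 6% O2. The comparison was made of the libraries titled as knockdown at 6% O2 (3) and as control at 6% O2 (3), which are 6 of the 18 libraries of the study, and it covered all genes. Each library pooled 10 whole adult females of 1 to 5 days of age that had been kept at 25 °C on potato-based food. Control flies (w;;+/UAS-Tudor-SN RNAi) carried the hairpin transgene against Tudor-SN without a driver. In knockdown flies (w;;Da-GAL4/UAS-Tudor-SN RNAi) the driver Da-GAL4 switches the hairpin on in nearly all tissues. All groups shared 1 RNAi line and the w background. No group carried the driver without the hairpin among the libraries analysed here, so an effect of the driver or its background and an effect of the knockdown cannot be told apart. The same genotypes in room air (normoxia) and after 6 h at 2% O2 gave the other 12 libraries, which share no library with the comparison at 6% O2.

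Tudor-SN is a conserved protein with staphylococcal-nuclease-like domains and a Tudor domain that binds RNA. It has been found in the RNA-induced silencing complex, in stress granules and in complexes for transcription and splicing, and in mammals it is also studied as a regulator of stress-responsive transcripts. Low oxygen in flies acts through the HIF pathway (sima and its targets such as lactate dehydrogenase) and touches translation, mitochondrial and immune genes.

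Levels are FPKM, fragments per kilobase of transcript relative to all mapped fragments, a unit that corrects for length and depth, divided by 1 scaling factor per library (0.990 to 1.03 in the 6 libraries). The deposited FPKM summed to 879852 to 936479 in these libraries, and low values put their relative depth at 0.989 to 1.01, so no library was shallower than the rest. Differences are log2 of scaled FPKM + 1, knockdown minus control, ± SE with n = 3 per group. They understate the change of low genes. A gene was called where limma's Benjamini-Hochberg adjusted p over all 9924 tested genes was under 0.05. The female germline and eggshell markers were present in all 6 libraries, and the 5 male markers in the tables summed to at most 0.427 FPKM, with 2 of them at 0 in all 6. Control replicate 1 stood apart: on the second principal component of the 6 libraries (26.2% of the variance) it lay at -23.2 against 13.6 and 16.9 for the other controls. Results that rest on it are given with and without it. RNA was taken from whole flies, where fewer cells of a type and less RNA per cell cannot be told apart.

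Tudor-SN (FBgn0035121, BDGP6 3L:259043-264380) was at 215, 215 and 221 scaled FPKM in the control libraries and at 18.2, 13.8 and 15.8 in the knockdown libraries. The groups were far apart, and the knockdown level was 7.33% of the control level. The log2 difference was -3.70 ± 0.0771 (limma adjusted p = 3.39e-14). The 2-sided exact permutation test gave p = 0.1, and it cannot give a smaller one with 3 libraries in each group.

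In knockdown flies at 6% O2, immune-induced peptides rose most. Of the secretory-pathway and proteasome genes 23 of 46 and 15 of 32 rose, by smaller steps. Among the genes that fell were 19 of 38 phototransduction genes, 22 of 68 cytochrome P450 genes, 15 of 39 ribosome biogenesis genes and 10 of 34 digestive proteases. In all, 2444 of 9924 genes were called (24.6%), 1194 higher (12%) and 1250 lower (12.6%). Most steps were small: the median size among called genes was 0.32, and 48 genes rose and 61 fell by at least 2-fold. Over all tested genes the median difference was -0.01. The groups did not overlap for 4599 genes (46.3%), among them 2356 of the called ones. Without control replicate 1 the count of calls was 892, without knockdown replicate 2 it was 936, and without knockdown replicate 3 it was 1307. No gene was called in the opposite direction in any of these 3 fits. Calls also went with the level of the gene. Of 1776 genes with a mean of 1 to 5 FPKM, 46 were higher and 306 lower, and of 4447 genes at 20 to 100 FPKM, 778 were higher and 396 lower. Above 500 FPKM, 17 of 237 genes were higher and 45 lower.

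**Figure D1:**
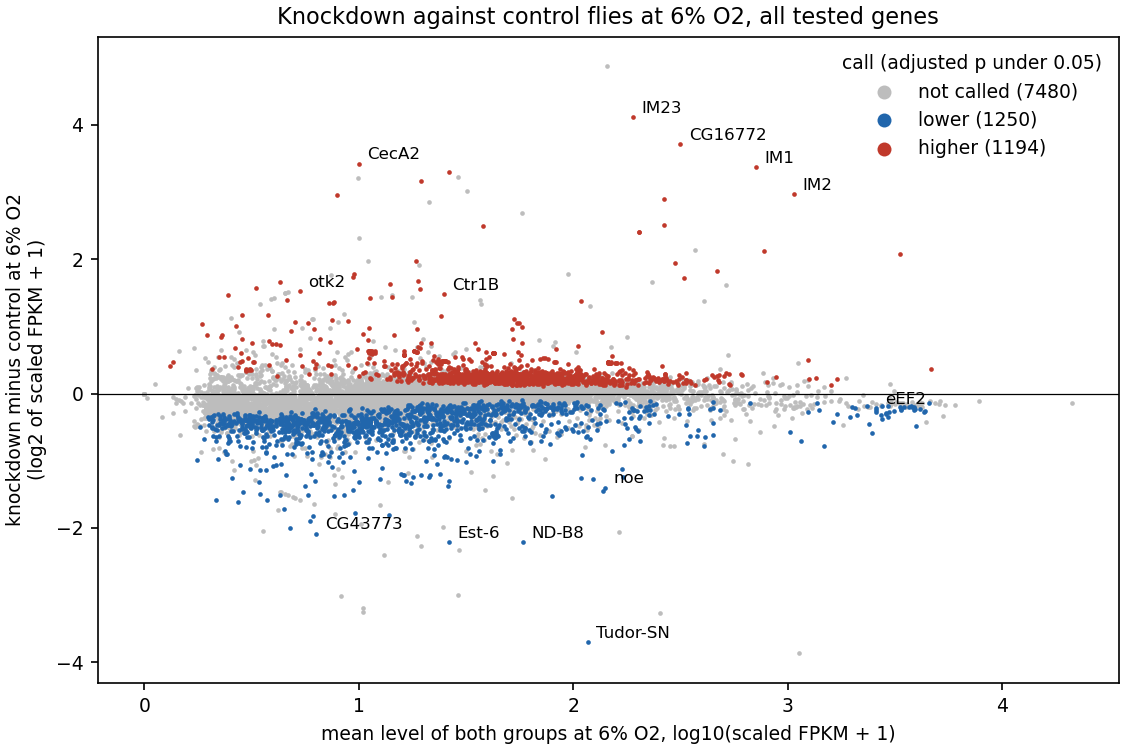
Each point is 1 of the 9924 tested genes, with its mean level at 6% O2 on the x axis (log10 of scaled FPKM + 1) and its difference between knockdown and control flies on the y axis (log2). The 1194 genes called higher and the 1250 called lower lie mostly close to 0, Tudor-SN is at -3.70, and IM peptides lie at the upper right.

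The IM (bomanin) genes encode short secreted peptides that the fat body makes under the Toll pathway after infection. Of 16 tested members 10 rose and 0 fell, with a median of 1.95 against -0.01 over all tested genes. When only the 6 libraries at 6% O2 were fitted 4 were called, and with array weights 14, 0 of them lower in either fit. IM23 was at 44.3, 11.9 and 11.4 scaled FPKM in control libraries and at 482, 198 and 385 in knockdown libraries. Every knockdown library was several times above every control library, and the log2 difference was 4.11 ± 0.589 (adjusted p = 0.000848). IM1 was at 324, 74.3 and 59.6 in controls and at 1725, 658 and 1428 in knockdown flies (3.37 ± 0.732, adjusted p = 0.00802). IM2 was at 461, 192 and 124 in controls and at 2381, 980 and 2314 in knockdown flies (2.97 ± 0.611, adjusted p = 0.00613). In all 3 genes control replicate 1 was the highest control and knockdown replicate 2 the lowest knockdown library. The groups did not overlap, which the rule for naming the largest changes required.

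Control replicate 1 was again the highest control and knockdown replicate 2 the lowest knockdown library for CG15067, at 106, 65.6 and 60.1 in controls and 527, 272 and 551 in knockdown flies (2.50 ± 0.407, adjusted p = 0.00173). CG43202 went from 12.03, 0.566 and 3.57 to 51.3, 28.9 and 55.7 (3.30 ± 0.664, adjusted p = 0.00526). IM3, chosen after its values were seen because it was the most abundant of the list, was at 2448, 940 and 717 in controls and 6563, 2979 and 6394 in knockdown flies (2.08 ± 0.567, adjusted p = 0.0219). Together the 16 members summed to a mean of 5309 FPKM in control and 15220 FPKM in knockdown libraries, and IM3 made up the largest part of the rise.

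The 10 members on 2R from 18381393 to 18390629 (BDGP6) lie side by side in 9237 bp with no other tested gene between them. Of these, 7 rose, and 0 fell. From the left, CG43202, IM23, IM1, CG18107, CG15067, IM2 and IM3 were called, and the last 3 of the run were not. These are CG16836 (0.80 ± 0.437, adjusted p = 0.182), CG15065 (1.61 ± 0.622, adjusted p = 0.0719) and CG15068 (-0.29 ± 0.470, adjusted p = 0.653), named after their values were seen, and with array weights CG16836 and CG15065 passed (adjusted p = 0.0182 and 0.00698). CG15065 also passed without control replicate 1 (adjusted p = 0.0248). Its difference was larger than that of CG18107 (0.96 ± 0.276), so the sizes did not follow the order of the calls. IM23, IM1, IM2, CG15067 and CG43202 kept their calls whichever of the 6 libraries was left out, but IM1 and CG43202 lost theirs when only the 6 libraries were fitted (adjusted p = 0.0581 and 0.0660), as did IM3, IM4, IM14 and CG5778 (adjusted p = 0.0784 to 0.142). After quantile normalisation IM4 was not called (adjusted p = 0.0545). The other 5 called members lost theirs without control replicate 3 and without knockdown replicate 3 (adjusted p up to 0.132), which left 5 members called in each case. IM14 and IM4 kept theirs only without control replicate 1, CG18107 was also lost without it (adjusted p = 0.0947), and 6 members were called without knockdown replicate 1. CG15068 was at a mean of 1293 FPKM in controls, close to IM3 at 1368, so the members that were not called include an abundant one. CG15067 and CG18107 overlap on opposite strands, and whether reads were assigned by strand is not given in the sources used here. IM4 and IM14, a neighbouring pair on 2R, were both called higher (1.82 ± 0.611 and 2.11 ± 0.704), as was CG5778 on 3R (1.37 ± 0.361).

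**Figure D2:**
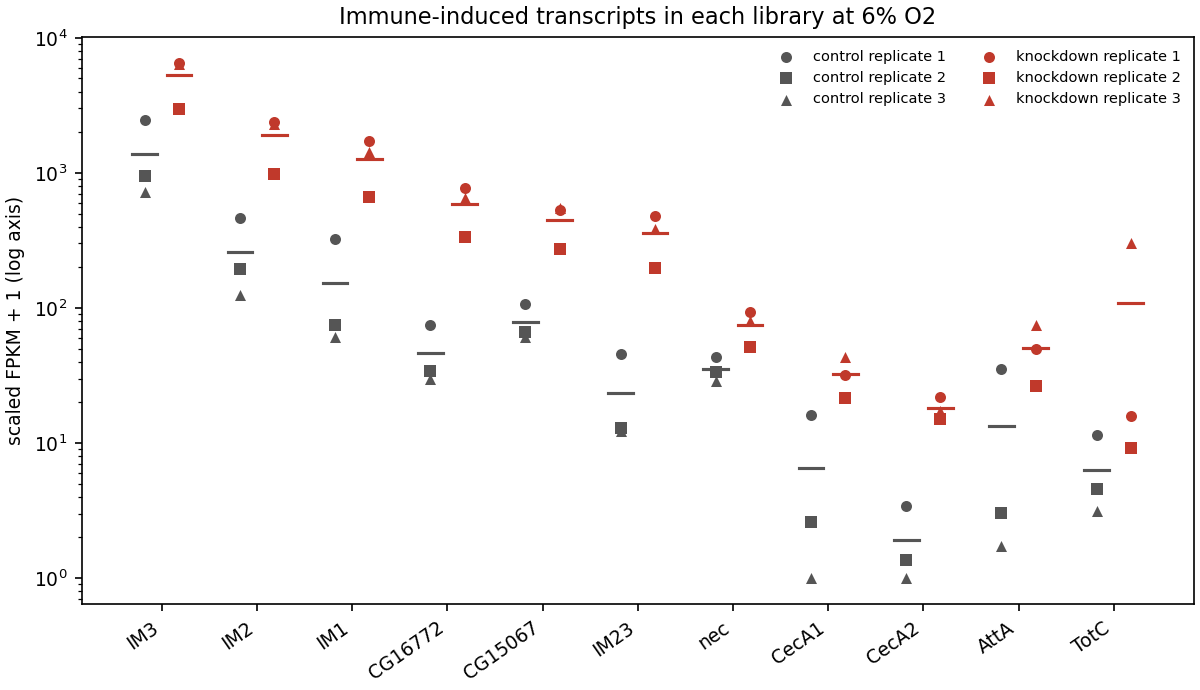
Levels of 11 immune-induced or stress-induced genes in each of the 6 libraries (scaled FPKM + 1, log axis; grey, control; red, knockdown; bars, group means of the values shown). Control replicate 1 is the highest control for each gene, AttA overlaps between the groups, and the mean of TotC rests on knockdown replicate 3.

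Other immune-induced genes lay among the largest rises. CG16772 went from 73.3, 32.9 and 28.8 in controls to 776, 331 and 650 in knockdown flies (3.71 ± 0.527, adjusted p = 0.000833). GNBP-like3 went from 174, 33.8 and 28.7 to 589, 248 and 510 (2.90 ± 0.712, adjusted p = 0.0145). IMPPP, the precursor of a set of secreted immune peptides, went from 156.4, 38.4 and 31.7 to 388, 191 and 404 (2.41 ± 0.625, adjusted p = 0.0181). CG33470 had nearly the same values as IMPPP in every library, and how reads were divided between these copies is uncertain. Both calls were lost without control replicate 2 (adjusted p = 0.0518) and without knockdown replicate 3 (adjusted p = 0.0604), and when only the 6 libraries were fitted (adjusted p = 0.0868), where GNBP-like3 did not pass either (adjusted p = 0.0790). In all of them control replicate 1 was again the highest control.

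Antimicrobial peptides, which kill microbes directly and are induced by the Imd and Toll pathways, were less uniform. Of 15 tested members 2 rose (12% of all tested genes did) and 0 fell, with a median of 1.19. These were the cecropins CecA1 (15.2, 1.58 and 0 in controls, 31.0, 20.5 and 42.4 in knockdown flies, 3.16 ± 1.04, adjusted p = 0.0439) and CecA2 (2.43, 0.352 and 0 in controls, 20.9, 14.1 and 16.3 in knockdown flies, 3.42 ± 0.714, adjusted p = 0.00616). AttA, an attacin, was at 34.4, 2.02 and 0.740 in controls and at 48.8, 25.2 and 74.0 in knockdown flies, which overlap through control replicate 1 (3.01 ± 1.04, adjusted p = 0.0512, not called). CR44404, a non-coding RNA chosen after its values were seen, showed this most plainly, at 265, 0 and 0 in controls against 213, 122 and 253 in knockdown flies, and it was not called (adjusted p = 0.113). Without control replicate 1, 4 antimicrobial peptides and 11 IM peptides were called higher, with medians of 2.17 and 2.53. The call of CecA1 was lost when any 1 of the other 5 libraries was left out (adjusted p = 0.0813 to 0.126), which left 1 antimicrobial peptide called, and also after quantile normalisation (adjusted p = 0.0511) and with only the 6 libraries fitted (adjusted p = 0.114). With array weights 7 members were called higher, AttA among them (4.07, adjusted p = 0.00246). The fat-body markers (1 of 4 called lower, and Fbp1 at 0 in all 6 libraries) summed to 655 to 1115 FPKM in controls and 472 to 696 in knockdown flies, mostly through Yp1.

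Of 37 genes for immune recognition and signalling 5 rose and 4 fell (median 0.06). These shares are close to the 12% higher and 12.6% lower among all tested genes. The genes that rose included nec, a serpin that restrains Toll activation, at 42.1, 32.7 and 27.8 in controls and 91.8, 50.2 and 78.4 in knockdown flies (1.06 ± 0.195, adjusted p = 0.00272). The gene cact, the IkappaB-like inhibitor that holds the Toll transcription factors in the cytoplasm and is itself a Toll target, went from 194, 205 and 213 to 243, 240 and 247 (0.25 ± 0.0440, adjusted p = 0.00159). SPE, the protease that cleaves the Toll ligand, rose by 0.80 ± 0.223 (adjusted p = 0.0220), and was chosen after its value was seen. The genes that fell were PGRP-SC1b (36.1, 47.7 and 25.9 against 12.7, 12.2 and 17.0, -1.30 ± 0.287, adjusted p = 0.00742), its near-identical copy PGRP-SC1a, pirk and modSP (-0.53 ± 0.133, adjusted p = 0.0124). PGRP-SC1b is an enzyme that degrades peptidoglycan in the gut, pirk is an inhibitor of Imd signalling, and modSP is a protease upstream of Toll. SPE lost its call without control replicates 2 or 3 or knockdown replicates 1 or 3 (adjusted p = 0.0565 to 0.0796), pirk and modSP without control replicate 1 (adjusted p = 0.0587 and 0.0711) or knockdown replicate 2 (0.0701 and 0.0522), and PGRP-SC1a without control replicate 2 or knockdown replicate 2 (adjusted p = 0.0552 and 0.0833). Leaving out 1 library gave between 2 and 8 members higher (without knockdown replicates 3 and 2) and between 1 and 5 lower (without knockdown replicate 2 and control replicate 3). With only the 6 libraries fitted 1 member was higher and 3 were lower, and nec, SPE and pirk did not pass (adjusted p = 0.0531, 0.120 and 0.0572). With array weights 9 were higher and 4 lower, Rel among those higher (0.31, adjusted p = 0.00668). After quantile normalisation pirk did not pass (adjusted p = 0.0620). The Toll ligand spz (0.20 ± 0.0830), the receptor Tl (0.16 ± 0.0686) and the factors Dif (0.18 ± 0.126) and Rel (0.19 ± 0.0904), picked for their roles, did not pass (adjusted p = 0.0833, 0.0981, 0.284 and 0.131). Without control replicate 2, spz and Tl were called higher (adjusted p = 0.041 and 0.0423), and without knockdown replicate 2, Rel was (adjusted p = 0.0461).

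The list of Turandot genes, which encode stress-induced secreted proteins, and of JAK-STAT pathway genes gave 0 calls of 9 by limma (1 at an unadjusted p under 0.05). TotC was at 10.4, 3.58 and 2.12 in controls and 14.8, 8.12 and 301 in knockdown flies, and TotA at 57.7, 16.4 and 14.0 against 53.5, 27.7 and 391.8. Both group means were set by knockdown replicate 3, and the adjusted p were 0.102 and 0.172. With array weights 3 members of the list were called higher, TotC and TotA among them (adjusted p = 0.0206 and 0.0256). Hemocyte markers gave 0 calls of 4, and their summed level was 16.4 to 26.8 FPKM in controls and 16.1 to 22.3 in knockdown flies.

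Genes of the endoplasmic reticulum, which carries proteins into the secretory pathway and folds them, rose together by small steps. Of 46 tested members 23 rose and 0 fell, with a median of 0.15, and 37 lay above 0 and 9 below. Sec61beta, a subunit of the translocation channel, was at 220, 218 and 226 scaled FPKM in controls and at 299, 285 and 300 in knockdown flies (0.41 ± 0.0590, adjusted p = 0.000648). TRAM, which helps chains enter the channel, went from 47.7, 46.2 and 42.4 to 64.7, 55.8 and 58.7 (0.39 ± 0.0558, adjusted p = 0.000655). Replicates of each group lay within a narrow range and the groups did not overlap, as in most called genes. SsRbeta, a subunit of the signal-sequence receptor, rose by 0.26 ± 0.0433 (adjusted p = 0.00132) and shv, a luminal DnaJ co-chaperone, by 0.28 ± 0.0469 (adjusted p = 0.00132). Hsc70-3, the fly BiP, was at 261, 278 and 283 in controls and 311, 299 and 316 in knockdown flies (0.17 ± 0.0478, adjusted p = 0.0202), and lost its call without control replicate 1 (adjusted p = 0.0993) or knockdown replicate 3 (adjusted p = 0.0722). The sensors and transcription factors of the unfolded protein response, picked for their roles, did not pass: Xbp1 differed by -0.04 ± 0.0702, Atf6 by -0.04 ± 0.0751, PEK by 0.06 ± 0.0738 and crc, the fly ATF4, by -0.15 ± 0.0729. Without control replicate 3, crc was called lower (-0.22, adjusted p = 0.0446). The count of members called was 17 without control replicate 1 and 19 without knockdown replicate 2, with 0 lower in both, and 15 with 0 lower when only the 6 libraries were fitted, where Hsc70-3 did not pass (adjusted p = 0.0606; 0.123 after quantile normalisation).

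**Figure D3:**
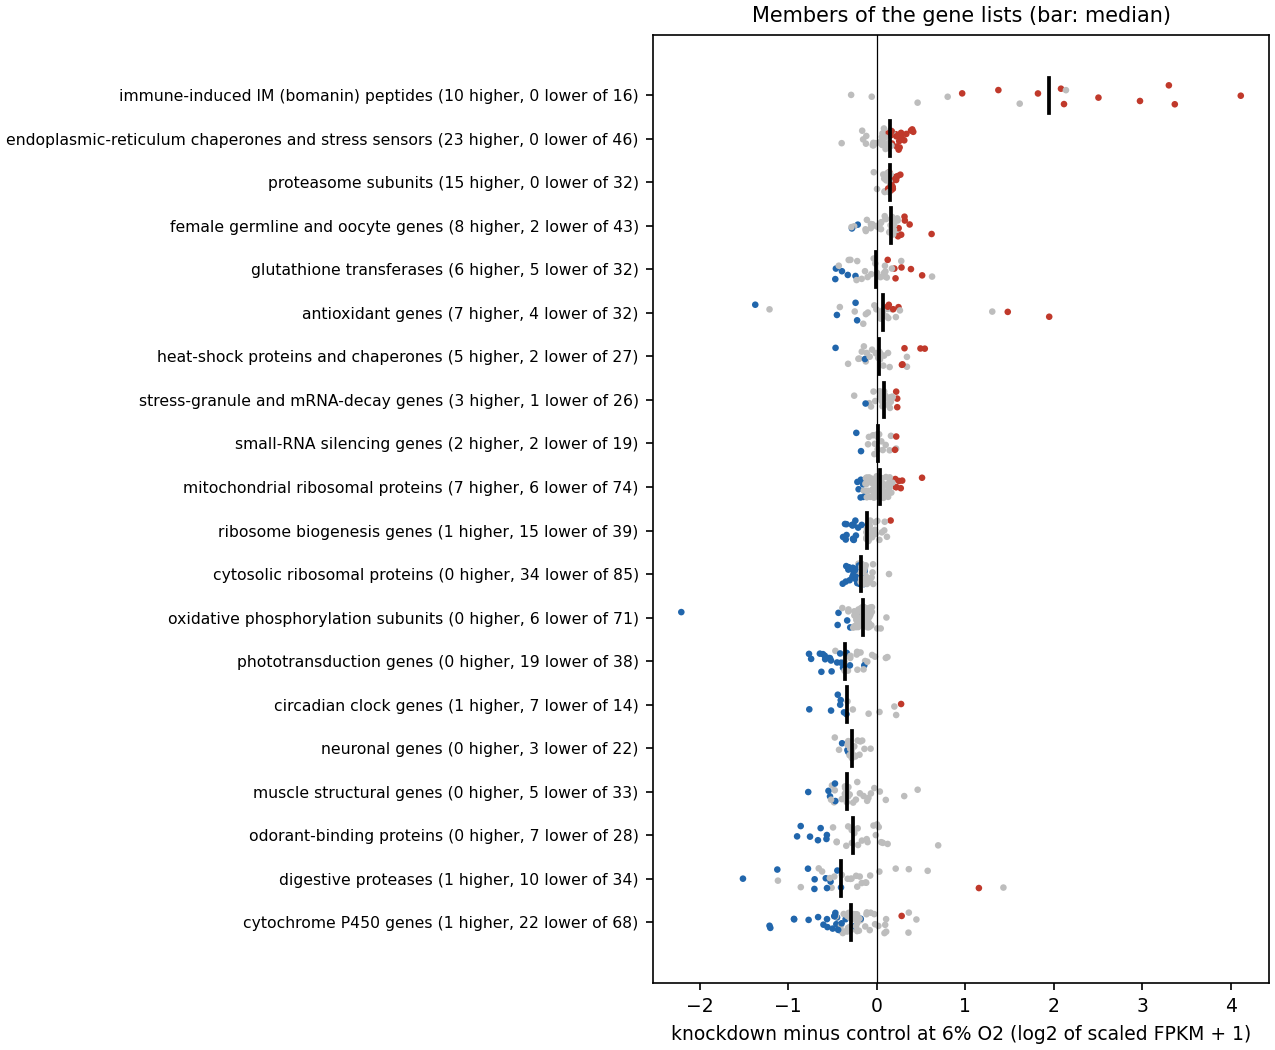
Difference between knockdown and control flies at 6% O2 for each member of 20 gene lists (x axis, log2; red, called higher; blue, called lower; grey, not called; bar, list median; vertical scatter within a row has no meaning). IM peptides have a median of 1.95, and 31 of 32 proteasome subunits and 37 of 46 endoplasmic-reticulum genes lie above 0.

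The proteasome, which degrades ubiquitinated proteins, had 15 of 32 tested subunits higher and 0 lower (median 0.15). Prosalpha6, of the core particle, was at 229, 237 and 258 in controls and 292, 287 and 291 in knockdown flies (0.27 ± 0.0563, adjusted p = 0.00513). Rpt5, an ATPase of the regulatory particle, went from 132, 142 and 149 to 161, 168 and 162 (0.21 ± 0.0515, adjusted p = 0.0103; 0.0579 without control replicate 1 and 0.0501 without knockdown replicate 2). Of the 32 subunits 31 lay above 0. The count called was 2 without control replicate 1, 9 without control replicate 2, 3 without knockdown replicate 2, 8 without knockdown replicate 3, 4 with only the 6 libraries fitted and 2 after quantile normalisation (Rpt5, adjusted p = 0.102), while the median stayed between 0.10 and 0.18 in all alternatives.

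Cytosolic chaperones were mixed, with 5 of 27 higher and 2 lower (median 0.03). The share called is close to the 24.6% among all tested genes. Hsp26, a small heat-shock protein, went from 833, 1090 and 1182 to 1321, 1605 and 1413 (0.49 ± 0.104, adjusted p = 0.00517). Hsf, the heat-shock transcription factor, went from 56.5, 67.6 and 65.9 to 74.2, 81.1 and 77.2 (0.29 ± 0.0691, adjusted p = 0.00961; 0.0535 without control replicate 1 and 0.0501 without knockdown replicate 2). DnaJ-1, an Hsp40 co-chaperone, rose by 0.28 ± 0.0661 (adjusted p = 0.00849). Hsp70Bb, an inducible Hsp70, was low in both groups (1.06, 0.701 and 0.973 against 1.69, 1.64 and 2.02) but was called higher (0.54 ± 0.115, adjusted p = 0.00518). Its copies are nearly identical, so its single value is uncertain, and Hsp70Aa was not called (0.34 ± 0.187, adjusted p = 0.179). The chaperone count was 3 higher and 0 lower without control replicate 1 or knockdown replicate 2, and 4 and 0 without knockdown replicate 3. With only the 6 libraries fitted it was 1 and 1, and Hsp26, Hsf and DnaJ-1 did not pass (adjusted p = 0.0604, 0.0501 and 0.0650), and after quantile normalisation it was 3 and 2 (DnaJ-1, adjusted p = 0.0570). With array weights it was 8 and 2, Hsp70Aa among those higher (adjusted p = 0.0364).

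Few genes of the small-RNA, piRNA and stress-granule lists, among which Tudor-SN itself is usually placed, were called. Of 19 small-RNA silencing genes 2 rose and 2 fell. Dcr-2, which cuts double-stranded RNA into siRNAs, fell by 0.18 (SE 0.0601, adjusted p = 0.0426), and AGO2, the slicer of the siRNA pathway and picked for its role, differed by 0.03 ± 0.0431 (adjusted p = 0.645). Of 26 piRNA and Tudor-domain genes 3 rose and 2 fell. The gene tapas, which encodes another Tudor-domain protein, was at 49.1, 52.6 and 55.1 in controls and 63.8, 67.3 and 67.6 in knockdown flies (0.34 ± 0.0499, adjusted p = 0.000701). Of 26 stress-granule and mRNA-decay genes 3 rose and 1 fell. The DEAD-box helicase me31B went from 1169, 1325 and 1268 to 1437, 1519 and 1455 (0.23 ± 0.0628, adjusted p = 0.0181) and Edc3, an enhancer of decapping, from 38.4, 41.2 and 39.4 to 44.3, 47.8 and 47.1 (0.22 ± 0.0605, adjusted p = 0.0192). The call of Dcr-2 was lost whichever library was left out (adjusted p = 0.0535 to 0.150), and those of me31B and Edc3 were lost without control replicate 1 (adjusted p = 0.0961 and 0.0833) and without knockdown replicate 2 (adjusted p = 0.0764 and 0.0807), that of Edc3 also without knockdown replicate 3 (adjusted p = 0.0610). When control replicate 1 or knockdown replicate 2 was left out, the small-RNA and the stress-granule lists had 0 calls each by limma, and without knockdown replicate 3 they had 0 and 1. Neither Dcr-2 nor me31B passed with only the 6 libraries fitted (adjusted p = 0.0932 and 0.0514) or after quantile normalisation (adjusted p = 0.0775 and 0.0614). The shares of called members in the 3 lists are below the 24.6% called among all tested genes.

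Genes for making ribosomes fell by small steps. Of 39 ribosome biogenesis genes 15 fell and 1 rose, with a median of -0.11. RpI135, a subunit of RNA polymerase I, was at 25.8, 24.7 and 24.1 scaled FPKM in controls and 19.4, 18.8 and 20.04 in knockdown flies (-0.34 ± 0.0501, adjusted p = 0.000701). RpI1, the largest subunit of that polymerase, went from 37.5, 37.0 and 36.2 to 31.7, 28.5 and 31.0 (-0.27 ± 0.0482, adjusted p = 0.00177). Nop56, of the snoRNP that methylates ribosomal RNA, went from 211, 215 and 220 to 184, 174 and 179 (-0.26 ± 0.0443, adjusted p = 0.00134). The replicates of each group were close together, and leaving out any 1 library left 11 to 15 members lower.

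Of 85 cytosolic ribosomal proteins 34 fell and 0 rose (median -0.17), and 84 lay below 0. RpL23A was at 3278, 2902 and 3182 in controls and 2557, 2261 and 2351 in knockdown flies (-0.38 ± 0.0686, adjusted p = 0.00191). RpS21 went from 3302, 3122 and 3427 to 2757, 2575 and 2404 (-0.35 ± 0.0725, adjusted p = 0.00452). Ribosomal proteins took 32.3% to 34.4% of the summed FPKM in control and 29.9% to 31.8% in knockdown libraries, which did not overlap. This result depended on the scaling and on single libraries. After quantile normalisation the median was -0.01, with 1 member higher and 8 lower, and 5 were lower without control replicate 1, 5 without knockdown replicate 2, 10 without knockdown replicate 3, 45 without control replicate 2 and 5 when only the 6 libraries were fitted. Mitochondrial ribosomal proteins had 7 of 74 higher and 6 lower (median 0.03), led by mRpL50 (52.8, 55.0 and 61.96 against 84.2, 77.1 and 81.5, 0.51 ± 0.0578, adjusted p = 7.50e-05). The share called is below the 24.6% among all tested genes. The mitochondrial count was 12 higher and 2 lower without control replicate 3, 4 and 1 without control replicate 1, 4 and 0 without knockdown replicate 2 and 5 and 0 without knockdown replicate 3. It was 3 and 2 with only the 6 libraries fitted and 5 and 10 after quantile normalisation.

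Eye genes were lower. Of 38 phototransduction genes 19 fell and 0 rose, with a median of -0.35. Arr2, the main arrestin that shuts off activated rhodopsin, was at 552, 463 and 494 scaled FPKM in controls and 352, 289 and 325 in knockdown flies (-0.64 ± 0.106, adjusted p = 0.00121). Arr1 went from 476, 395 and 401 to 305, 243 and 275 (-0.63 ± 0.105, adjusted p = 0.00136). Pdh, the retinol dehydrogenase of pigment cells, went from 26.4, 31.2 and 27.9 to 19.4, 14.5 and 15.5 (-0.77 ± 0.118, adjusted p = 0.000767). The groups did not overlap in these genes, as in most called genes. The rhodopsin of the outer photoreceptors, ninaE, was at 1317, 1042 and 1093 in controls and 1013, 909 and 1026 in knockdown flies, with no call (-0.22 ± 0.110, adjusted p = 0.140). The 10 photoreceptor markers, 7 of them called lower, summed to 2137 to 2628 FPKM in controls and 1608 to 1873 in knockdown flies. Without control replicate 1, 9 of the 38 genes were lower, and without knockdown replicate 2, 11.

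The clock, neuronal, odorant-binding and muscle lists also held genes that fell. Of 14 circadian clock genes 7 fell and 1 rose (median -0.34). Pdf, the neuropeptide of clock neurons, was at 14.1, 16.4 and 15.0 in controls and 9.89, 7.58 and 8.21 in knockdown flies (-0.76 ± 0.110, adjusted p = 0.000648). The photoreceptor of the clock, cry, fell by 0.41 (SE 0.0930, adjusted p = 0.00702) and cyc, a partner of Clk, rose by 0.27 ± 0.0612 (adjusted p = 0.00664; 0.0520 with only the 6 libraries fitted). After quantile normalisation 2 clock genes were higher and 3 lower (median -0.18). Of 22 neuronal genes 3 fell and 0 rose, while all 22 lay below 0 (median -0.28). Their median control level was 4.11 FPKM, and all tested genes with a mean of 1 to 5 FPKM had a median of -0.22, with 17.2% lower. The neuronal median was -0.10 after quantile normalisation and -0.14 with a pseudocount of 5, with 0 called in both, and 6 were lower with array weights. The 4 neuron markers summed to 58.0 to 67.7 FPKM in controls and 42.4 to 48.0 in knockdown flies. Of 28 odorant-binding proteins 7 fell and 0 rose, and of 33 muscle genes 5 fell and 0 rose, led by Zasp66 of the Z disc (-0.47 ± 0.112, adjusted p = 0.00965). The shares lower of the neuronal and muscle lists are close to the 12.6% lower among all tested genes. The 6 muscle markers had 0 calls, and they summed to 1464 to 1682 FPKM in controls and 1151 to 1552 in knockdown flies, which overlap. With array weights 13 muscle genes were lower, and with only the 6 libraries fitted 11. Without control replicate 1 the neuronal and muscle lists had 0 calls each (Zasp66, adjusted p = 0.0536), 3 clock genes and 2 odorant-binding proteins were lower, and without knockdown replicate 2 the counts lower were 0, 1, 4 and 2. The neuronal list also had 0 calls without knockdown replicates 1 or 3, and 1 muscle and 4 clock genes were lower without knockdown replicate 3.

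**Figure D4:**
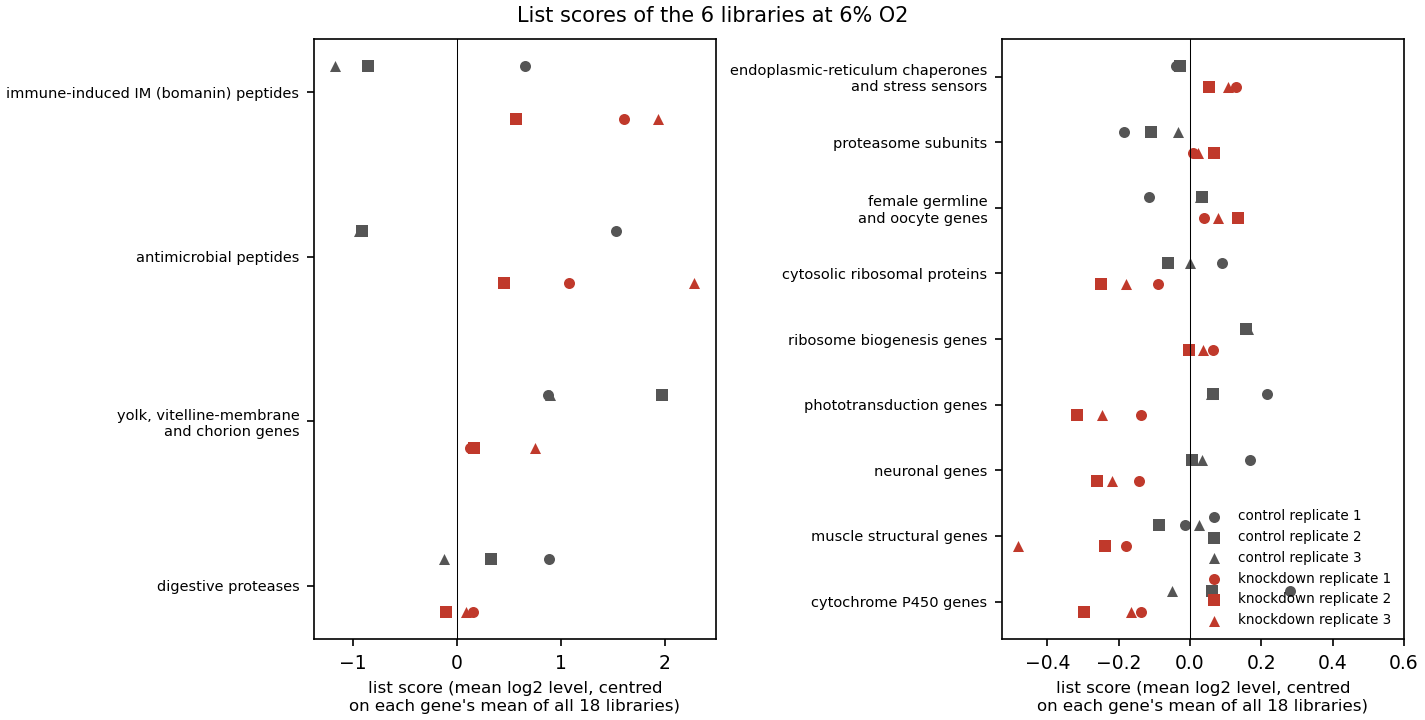
List scores of the 6 libraries (log2 level less the gene's mean of all 18 libraries, averaged over the list's members; grey, control; red, knockdown; symbols, replicates) for 13 lists, with a wider axis on the left. Phototransduction, neuronal and ribosome biogenesis scores do not overlap between the groups, and control replicate 1 lies at the upper end of the phototransduction, neuronal and P450 scores and in the knockdown range for IM peptides.

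Cytochrome P450 genes, which oxidise hormones, lipids and toxins, had 22 of 68 tested members lower and 1 higher (median -0.29). Cyp6a9 was at 23.6, 22.1 and 17.2 in controls and 7.55, 10.1 and 7.99 in knockdown flies (-1.202 ± 0.124, adjusted p = 3.49e-05). Cyp6g1, known for its part in DDT resistance, went from 55.0, 42.9 and 39.0 to 23.2, 24.2 and 22.2 (-0.93 ± 0.175, adjusted p = 0.00294). Without control replicate 1, and likewise without knockdown replicate 2, 6 members were lower, and without knockdown replicate 3, 10. After quantile normalisation 14 were lower and the median was -0.14, with a pseudocount of 5 the median was -0.18, and with only the 6 libraries fitted 11 were lower. Glutathione transferases went both ways, with 6 of 32 higher and 5 lower (12% and 12.6% of all tested genes were). Among them were GstD3, higher (0.39 ± 0.0549, adjusted p = 0.000626), and GstZ1, lower (-0.39 ± 0.102, adjusted p = 0.0149, and 0.0800 without knockdown replicate 2). When that library was left out 3 transferases were higher and 0 lower, without control replicate 1, 4 and 1, and without knockdown replicate 3, 5 and 1. With only the 6 libraries fitted 4 were higher and 1 lower, GstZ1 not passing (adjusted p = 0.0504).

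Of 32 antioxidant and metal genes 7 rose and 4 fell (12% and 12.6% of all tested genes did). The copper importer Ctr1B was at 11.97, 13.5 and 10.8 in controls and 41.8, 28.5 and 37.2 in knockdown flies (1.48 ± 0.214, adjusted p = 0.000701). Catalase, Cat, fell from 232, 184 and 190 to 150, 141 and 149 (-0.45 ± 0.110, adjusted p = 0.0112), and cnc, the Nrf2-like regulator of antioxidant genes, fell by 0.24 (SE 0.0365, adjusted p = 0.000714). Tsf1, an iron carrier of the hemolymph named after its values were seen, had the same order of libraries within each group as IM23 (327, 66.4 and 58.5 in controls, 583, 255.4 and 503 in knockdown flies). Unlike in IM23, the groups overlapped, with control replicate 1 above knockdown replicate 2. The list had 3 members higher and 1 lower without control replicate 1, Cat no longer passing (adjusted p = 0.0652), 3 and 5 without control replicate 2, 3 and 2 without knockdown replicate 2 and 2 and 4 without knockdown replicate 3. Tsf1 lost its call without control replicates 2 or 3 or knockdown replicates 1 or 3 (adjusted p = 0.0815 to 0.0900) and with only the 6 libraries fitted (adjusted p = 0.149), where the list had 2 members higher and 5 lower. After quantile normalisation it had 3 and 6, and with array weights 12 and 7.

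Some gut enzymes were lower. Of 34 digestive proteases 10 fell and 1 rose (median -0.40), and of 20 maltases, amylases and lysozymes 1 fell and 0 rose (median -0.52). The trypsin alphaTry was at 1908, 1311 and 1091 scaled FPKM in controls and 806, 895 and 878 in knockdown flies (-0.70 ± 0.175, adjusted p = 0.0133), and epsilonTry at 286, 221 and 190 against 108, 117 and 90.3 (-1.12 ± 0.246, adjusted p = 0.00751). The serine protease Ser7 rose from 17.0, 13.1 and 11.7 to 39.1, 24.3 and 33.9 (1.15 ± 0.195, adjusted p = 0.00148). The spread among controls was wide, with control replicate 1 highest, and 1 protease was lower without it, against 3 and 16 without control replicates 2 and 3, 5 without knockdown replicate 1 and 2 without knockdown replicate 2 or 3. The call of alphaTry was lost without control replicate 1 (-0.48, adjusted p = 0.0587) and with only the 6 libraries fitted (adjusted p = 0.0647), where 2 proteases were higher and 2 lower. After quantile normalisation 5 were lower, and with no filter on low values 6. Of the maltases, amylases and lysozymes 6 were lower without control replicate 3 and with array weights, and 0 after quantile normalisation and without control replicate 1 or knockdown replicates 1 or 3. The maltase Mal-A1 was at 171, 75.2 and 55.2 in controls and 34.2, 56.5 and 46.5 in knockdown flies and was not called (adjusted p = 0.0530; 0.0151 without control replicate 3 and 0.0226 with array weights). The 5 gut markers summed to 1268 to 2313 FPKM in controls and 962 to 1063 in knockdown flies, and their part in the fall of the proteases was not tested.

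Metabolic genes were mixed. The shares of sugar and fat genes called in either direction are close to the 24.6% among all tested genes (12% higher and 12.6% lower). Of 25 glycolysis and sugar genes 5 fell and 1 rose (median -0.02). Hex-C, a hexokinase of the fat body, went from 57.9, 52.2 and 46.1 to 32.0, 27.9 and 32.3 (-0.74 ± 0.135, adjusted p = 0.00225), and Tps1, which makes trehalose, from 169, 138 and 114.5 to 91.8, 84.9 and 91.5 (-0.63 ± 0.160, adjusted p = 0.0146). Of 30 fat storage and fatty-acid genes 7 fell and 0 rose (median -0.15), among them the diacylglycerol acyltransferase mdy (-0.52 ± 0.116, adjusted p = 0.00624). The receptor for adipokinetic hormone, AkhR, which controls fat release, went from 16.8, 14.4 and 12.5 to 9.001, 8.83 and 7.93 (-0.69 ± 0.137, adjusted p = 0.00356). The calls lower were 1 for sugar genes and 2 for fat genes without control replicate 1 and likewise without knockdown replicate 2, and Tps1 lost its call in both (adjusted p = 0.0784 and 0.0592). They were 2 and 4 without control replicate 2 or knockdown replicate 1, and 2 and 2 without knockdown replicate 3. With only the 6 libraries fitted or with unscaled FPKM 3 sugar genes were lower. Of 23 TCA-cycle genes 0 were called by limma (2 at an unadjusted p under 0.05).

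Few genes of the hypoxia response were called between genotypes at 6% O2, where 24.6% of all tested genes were. Of 14 tested members 1 was called: scyl, an inhibitor of TOR signalling, was at 90.9, 100 and 89.3 in controls and 108, 118 and 119 in knockdown flies (0.29 ± 0.0621, adjusted p = 0.00502). Lactate dehydrogenase, listed as ImpL3, was at 22.0, 11.02 and 12.04 in controls and 17.0, 12.6 and 13.8 in knockdown flies, with a difference of 0.00 ± 0.198. Control replicate 1 was again the highest, and the other controls lay below every knockdown library, so this difference rests on control replicate 1. Without that library the list again had 1 member higher and 0 lower (median 0.04).

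Germline genes had 8 of 43 higher and 2 lower (median 0.16). The share called in either direction is close to the 24.6% among all tested genes (12% higher and 12.6% lower). The differentiation factor bam was at 26.7, 31.0 and 32.0 in controls and 44.7, 54.2 and 40.9 in knockdown flies (0.62 ± 0.119, adjusted p = 0.00296), and the mitotic kinase polo went from 179, 203 and 204 to 233, 251 and 246 (0.32 ± 0.0755, adjusted p = 0.00970). The 5 germline markers summed to 953 to 1029 FPKM in controls and 1000 to 1021 in knockdown flies, which overlap. The count was 1 higher and 1 lower without control replicate 1, polo not passing (adjusted p = 0.0573), 2 and 0 without knockdown replicate 2, and 4 and 1 without knockdown replicate 3. With array weights it was 13 and 6, and after quantile normalisation 5 and 4. Of 25 yolk and eggshell genes 1 fell (0 without control replicates 1 or 2 or knockdown replicate 2) and 0 rose, although all 25 lay below 0 (median -0.64). Their levels varied widely within groups: Yp1, a yolk protein, was at 676, 1023 and 596 in controls and 636, 433 and 643 in knockdown flies (-0.41 ± 0.282, adjusted p = 0.284). The follicle-cell markers summed to 1568 to 2778 FPKM in controls and 733 to 1902 in knockdown flies.

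Apart from Tudor-SN, the largest falls with groups that did not overlap were in Est-6, ND-B8 and CG43773. Est-6, a carboxylesterase, was at 45.1, 47.1 and 35.2 scaled FPKM in controls and 8.17, 8.24 and 8.55 in knockdown flies (-2.21 ± 0.141, adjusted p = 2.81e-07). ND-B8, an accessory subunit of complex I, was at 95.3, 89.9 and 87.8 in controls and at 15.7, 44.7 and 9.38 in knockdown flies (-2.21 ± 0.407, adjusted p = 0.00330). Its knockdown libraries differed from each other several-fold, unlike those of Est-6. CG43773 went from 7.37, 9.81 and 10.6 to 2.21, 1.06 and 1.08 (-2.08 ± 0.434, adjusted p = 0.00569). The remaining 8 were CG5770, CG31661, CG31446, CR43196, CG8299, CG6277, lectin-24A and Zip42C.2, with differences from -1.99 to -1.59. CG5770 and CG6277 lost their calls without control replicate 1 (adjusted p = 0.0534 and 0.0804) or knockdown replicate 2 (adjusted p = 0.0501 and 0.0639), and CG31661 without any of 4 libraries (adjusted p = 0.0867 to 0.129) and after quantile normalisation (adjusted p = 0.0579). With only the 6 libraries fitted ND-B8, CG5770 and lectin-24A did not pass (adjusted p = 0.0677, 0.0628 and 0.0578). Of these, lectin-24A is a C-type lectin and Zip42C.2 a member of the ZIP family of zinc importers. CG32198 was among the largest rises, at 21.1, 9.27 and 5.26 in controls and 64.8, 63.6 and 58.5 in knockdown flies (2.49 ± 0.503, adjusted p = 0.00540).

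The difference between genotypes at 6% O2 was set beside that in normoxia and at 2% O2. In normoxia 1590 genes were called (16%), 585 higher (5.89%) and 1005 lower (10.1%), and 775 of them moved the same way at 6% O2, which is 31.7% of the calls at 6% O2 and 48.7% of those in normoxia. Only 4 genes were called in opposite directions. At 2% O2 2002 genes were called (20.2%), 642 the same way as at 6% O2 (26.3% of the calls at 6% O2 and 32.1% of those at 2% O2) and 95 the opposite way, 87 of these lower at 6% O2 and higher at 2% O2.

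At all 3 oxygen levels 291 genes were called the same way (2.93% of those tested), 102 higher and 189 lower. After Tudor-SN, those that fell included Est-6, the olfactory ionotropic receptor Ir76a (12.2, 13.02 and 13.3 against 3.92, 3.78 and 4.61 at 6% O2, -1.44 ± 0.0901, adjusted p = 2.61e-07), noe (213, 197 and 201 against 83.3, 71.4 and 75.5, -1.40 ± 0.155, adjusted p = 9.32e-05) and mago, of the exon-junction complex (86.0, 83.4 and 91.6 against 59.3, 58.1 and 57.1, -0.57 ± 0.0509, adjusted p = 9.07e-06). Those that rose included otk2, a kinase-like receptor (1.90, 1.99 and 1.37 against 6.34, 6.77 and 7.65, 1.53 ± 0.133, adjusted p = 8.70e-06), inaF-D (2.96, 3.74 and 3.03 against 13.3, 16.5 and 11.3, 1.78 ± 0.138, adjusted p = 2.38e-06) and Cda9, a chitin deacetylase (1.66 ± 0.170, adjusted p = 3.49e-05). All of these had groups that did not overlap at 6% O2, as had 2356 of the 2444 genes called there. The neighbour of inaF-D, inaF-B, shares its locus and was lower at 6% O2 (22.9, 19.0 and 20.2 against 12.6, 10.5 and 12.8, -0.74 ± 0.130, adjusted p = 0.00172), so how fragments were divided between them bears on both. By arm, these 291 genes were most frequent on 3L (81 of 1878, 4.31%), which also carries Tudor-SN. The shares were 3.36% on 2R, 2.435% on 3R, 2.41% on 2L, 2.35% on 4 and 2.18% on X. By the genotype notation both transgenes are on chromosome 3, and whether this bears on the shares was not tested.

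The test of the difference itself, 6% O2 minus normoxia, called 0 genes by limma (1017 at an unadjusted p under 0.05, smallest adjusted p = 0.0544). It called 1 gene without control replicate 3, 2 without knockdown replicate 1 and 11 without knockdown replicate 2. For IM23 it was 4.32 ± 0.833 with adjusted p = 0.111. IM peptides had a median of 1.95 at 6% O2, -0.42 in normoxia and 0.11 at 2% O2, with 10, 0 and 0 members called higher. Their difference from normoxia passed for 0 of 16, with 12 at an unadjusted p under 0.05 (10.2% of all tested genes were). Oxidative phosphorylation subunits had fewer calls at 6% O2 than at the other levels, and the number depended on the fit. At 6% O2 6 of 71 subunits were lower (median -0.16), against 66 in normoxia (median -0.46) and 47 at 2% O2 (median -0.34), where 8.48% were. The difference from normoxia again passed for 0 subunits, with 31 at an unadjusted p under 0.05. The 6 subunits lower at 6% O2 became 3 without control replicate 1 and without knockdown replicates 2 or 3, 13 after quantile normalisation and with only the 6 libraries fitted, and 34 with array weights. The median of the subunits at 6% O2 stayed between -0.18 and -0.13 in the alternatives that kept all 6 libraries.

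**Figure D5:**
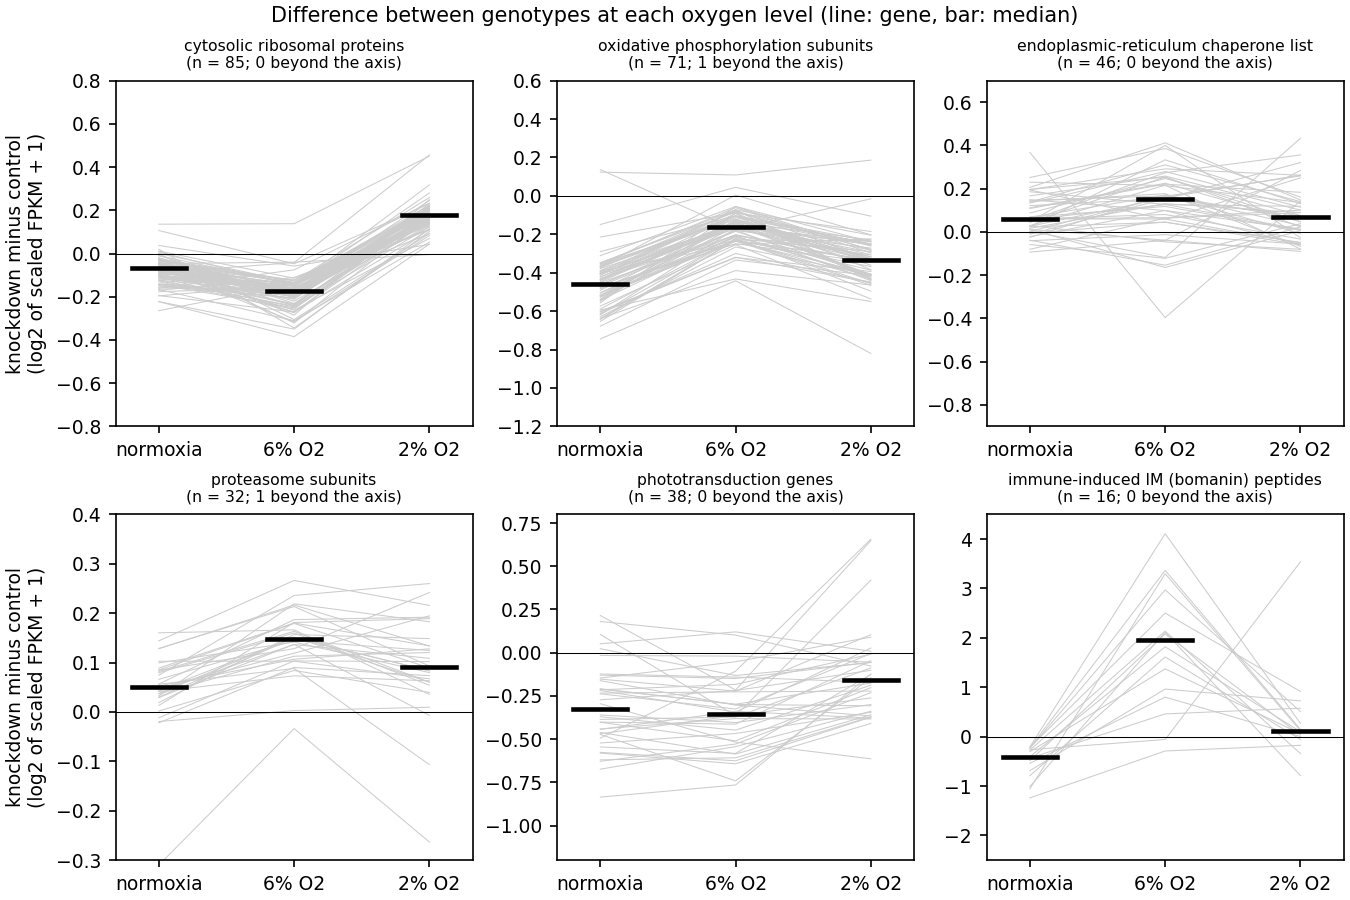
Difference between knockdown and control flies (y axis, log2, scale set per panel) in normoxia, at 6% O2 and at 2% O2 for members of 6 lists (lines, genes; bars, medians). The bars of the ribosomal proteins lie at -0.07, -0.17 and 0.18, those of the oxidative phosphorylation subunits at -0.46, -0.16 and -0.34, and those of the IM peptides at -0.42, 1.95 and 0.11.

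The difference between genotypes at 6% O2 minus that at 2% O2 was called for 940 genes (9.47%), 200 higher (2.02%) and 740 lower (7.46%). The count was 508 without control replicate 1, 431 without knockdown replicate 2 and 562 without knockdown replicate 3. Cytosolic ribosomal proteins were frequent among them: 68 of 85 were called, all lower, with a median of -0.36. At 2% O2 21 ribosomal proteins were higher in knockdown flies (11.7% of tested genes were), and their share of summed FPKM there was 35.4% to 36.8% in knockdown and 33.8% to 34.6% in control libraries. For RpL23A the difference of the differences was -0.43 ± 0.0971 (adjusted p = 0.0146). IM23 and CG16772 differed in the other direction (3.84 ± 0.833, adjusted p = 0.0153, and 3.13 ± 0.746, adjusted p = 0.0237). Among the 95 genes called in opposite directions, Tps1 was lower in knockdown flies at 6% O2 (-0.63) and higher at 2% O2 (0.71, adjusted p = 0.00683). Vha100-4, a proton pump subunit, was at 6.95, 5.40 and 3.81 in controls and 1.09, 0.808 and 1.76 in knockdown flies at 6% O2 (-1.52 ± 0.280, adjusted p = 0.00235). It was not called at 2% O2 (0.42).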

How the data were processed

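Each of the 18 libraries has a table of FPKM values for 17658 genes, which the authors deposited; Cufflinks, TopHat2, HTSeq and build BDGP6 are named, without versions, per the submitters' processing notes. Polyadenylated RNA was read on a BGISEQ-500 and replicates are called biological, per the labels. Strand specificity is not given in the sources used here, and 41 of the 111 genes in the text overlap a locus on the other strand. Overlapping or near-identical genes share fragments, so their single values are uncertain. All 38 mitochondrial-genome genes are listed at 0, so an exact 0 may be a failed estimate. Deposited starts count from 0, and 1 was added. Of the identifiers 17521 were in the reference annotation, 17303 with identical coordinates after this.

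FPKM tables hold no read totals. Low values were compared as multiples of what 1 read is worth, and 80.8% to 94.6% lay within 0.1 of a whole multiple in the 6 libraries, which gave relative depth only. Scaling used median-of-ratios factors over 9068 genes above 1 FPKM in every library. The fit was on log2 of scaled FPKM plus 1, for 9924 genes with a mean of at least 1, by limma 3.58.1 under R 4.3.3 (eBayes with trend and robust), with 6 group means and a spread shared by all 18 libraries. Contrasts, all 2-sided, were knockdown minus control at each oxygen level and the difference at 6% O2 less that at each other level. The script was tested on simulated data. The pseudocount, the filter, the scaling, the replicate block, library weights, the libraries fitted and each of the 6 libraries were varied in turn. Library weights for the differences between oxygen levels were added after seeing the data.

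The libraries, the 38 gene lists (1427 entries matched, 30 not) and the rules were chosen with earlier results of these data known. The rule for names took Tudor-SN; the 12 largest called changes each way with groups that did not overlap and a higher mean of at least 2 FPKM; up to 4 called members of each list with the smallest adjusted p, or 1 member where none was called; up to 8 genes each way called at all 3 oxygen levels; up to 5 each way with the largest called difference between levels; and 10 genes fixed by name (AttA, TotA, ImpL3, Hsp70Aa, Hsp70Bb, Hsc70-3, ninaE, Yp1, Mal-A1 and Est-6). Of the 111 genes in the text 89 came from this rule, and the others were picked for their role, position or value.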

Additional observations from a re-analysis of the deposited data

Results flagged for a closer look

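For 21 of the 111 genes in the text the difference between knockdown and control flies at 6% O2 was of another size or sign than at 2% O2, by the test of the difference itself (log2 at 6% O2 minus log2 at 2% O2, limma, adjusted p under 0.05 over all tested genes, n = 3 per group). Over all tested genes 940 passed (9.47%). The rule for names took some genes because they passed this same test, so the count of 21 is not a result of its own. For Tudor-SN the log2 at 6% O2 minus that at 2% O2 was 0.988 ± 0.109 (adjusted p = 0.00024), with a knockdown level of 3.32% of control at 2% O2. Among immune genes it was 3.84 for IM23 (4.11 at 6% O2 and 0.268 at 2% O2) and 3.13 for CG16772 (3.71 and 0.578). For pirk, an inhibitor of Imd signalling, it was -2.05, with -0.673 at 6% O2 and 1.38 at 2% O2. For lectin-24A it was -1.81 (-1.61 and 0.201).

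The Hsp70 genes gave -1.76 for Hsp70Aa (0.34 at 6% O2 and 2.10 at 2% O2) and -1.11 for Hsp70Bb (0.542 and 1.65). The ribosomal proteins gave -0.428 for RpL23A (-0.385 and 0.0436) and -0.465 for RpS21 (-0.35 and 0.115). Of the metabolic genes, Tps1 gave -1.34 (-0.628 and 0.707), Hex-C -0.859 (-0.739 and 0.120), mdy -0.602 (-0.525 and 0.0777) and Cat -0.520 (-0.45 and 0.0695). Ctr1B gave 1.32 (1.48 and 0.161), Ser7 1.20 (1.15 and -0.0479) and Edc3 0.333 (0.219 and -0.113). The receptor otk2 was higher in knockdown flies at both levels and gave -0.803 (1.53 and 2.33). Pdh gave -0.641 (-0.765 and -0.124), Vha100-4 -1.93 (-1.52 and 0.418), CG31446 -1.91 (-1.83 and 0.0822) and CG6277 -2.31 (-1.72 and 0.591). The relative depth of knockdown replicate 3 at 2% O2 was 0.875, the lowest of the 18 libraries, and its part in these values was not tested.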

How the results depend on the processing

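Of 9924 tested genes 2444 were called at 6% O2, and no alternative called a gene in the opposite direction. The count was 1342 (589 higher, 753 lower) when only the 6 libraries were fitted, a fit with fewer degrees of freedom. Without 1 library it ranged from 892 to 2736 (466 to 1350 higher, 426 to 1386 lower), lowest without control replicate 1. Without that library 865 of the 892 calls were also calls of the full set. The difference from normoxia was called for 0 genes, but for 107 with array weights, 5 at a mean of at least 5 FPKM, 23 after quantile normalisation and 0 to 11 without 1 library. The difference from 2% O2 was called for 940 genes, 1996 with array weights and 431 to 1068 without 1 library. The cause of these shifts was not tested. The log2 difference of Tudor-SN ranged from -3.79 to -3.41. Over 110 other genes and all alternatives, 1500 of 1642 values kept their call or lack of a call, 122 lost the call and 20 gained it. The sign changed with a call in either fit for 0 values, and sign changes of uncalled values were not counted. With the replicate number as a block 2532 genes were called, 0 for the difference from normoxia and 878 for that from 2% O2. Deviations of same-numbered libraries correlated at 0.0859, 0.135 and -0.180, and those of differently numbered ones at -0.299 to 0.254. Pairing by number was thus not seen, but 3 libraries per group are too few to exclude it. FPKM carries no counting error of its own, and low genes rest on few fragments.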
